A study of Homo sapiens with 16 samples.

Results

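Cells of HCT116, a human colorectal carcinoma line, that carry a short hairpin RNA (shRNA) against *NAA40* were sequenced in 8 of the 16 libraries of the series, and the comparison described here is between their doxycycline (dox) labels. The members are 4 libraries labelled NAA40-KD (+dox) and 4 labelled NAA40-KD (−dox). By these labels the former were kept in dox at 1 μg/ml for 96 h and the latter for 96 h at 0 μg/ml. They were chosen by the title and treatment entry of each sample, and the genes by a level above 1 CPM (read counts scaled to the library total) in at least 4 of these 8 libraries, which 13844 of the 33937 listed genes passed. The remaining 8 libraries, 4 labelled SCR (+dox) and 4 labelled SCR (−dox), come from HCT116 cells with a scrambled hairpin under the same culture conditions. The hairpin is of the inducible kind, so all 8 libraries come from the same engineered stable line and differ in their labels by dox alone. The labels do not say which hairpin the line carries, while the study names its RNA-seq line NAA40-KD2, and neither says whether it is a single clone.

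NAA40 is the N-terminal acetyltransferase that modifies the first residue of histones H2A and H4, and it sits apart from the multi-subunit complexes that acetylate most other protein N termini. In an inducible system, dox releases a repressor from the promoter of the hairpin, the hairpin is processed into a small interfering RNA, and the matching transcript is cut. The transcript level of the target is therefore the first check on the labels. Genes for DNA replication are largely under the control of E2F factors, which retinoblastoma family proteins hold back until cells pass from G1 into S phase, while interferon-stimulated genes are switched on by STAT and IRF factors that read a different promoter element.

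The sequence below is the stretch of *NAA40* that the study recoded to make a construct resistant to the hairpin of NAA40-KD2, shown because it is where that hairpin matches. It lies in the coding part of exon 7 of the transcript NAA40-202, on the + strand of GRCh38 at chr11:63953984-63954004. Capitals mark the 6 of 21 bases at which the endogenous transcript and the resistant construct differ.
*NAA40* target site: gaaGgtTatgTtAacAgtAtt
A search of 206694 annotated human transcripts for this site with up to 3 mismatches found 2 other genes, of which 1, *HBS1L*, was expressed highly enough to be tested. *HBS1L*, a ribosome rescue factor, had a log2 fold change of −0.39 between the (+dox) and (−dox) labels (adjusted p = 0.327), and −0.61 (adjusted p = 1.6e-09) without NAA40-KD (−dox) replicate 4, so its level was not lower where *NAA40* was low.

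Throughout, a positive log2 fold change means a higher level in the libraries labelled (+dox). Adjusted p-values come from the quasi-likelihood test of edgeR, corrected by Benjamini-Hochberg over all 13844 genes tested unless another fit is named, and a gene was called differentially expressed at an adjusted p under 0.05 with an absolute log2 fold change above 1. Levels are CPM scaled by the TMM factors over all 16 libraries.

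*NAA40* had its lower level under the label NAA40-KD (−dox) and its higher one under NAA40-KD (+dox), the opposite of what the labels of an inducible knockdown would give. Its level was 31.5, 29.3, 28.7 and 31.9 CPM in the 4 libraries labelled (+dox) and 12.6, 11.6, 9.27 and 13.8 CPM in the 4 labelled (−dox). The groups did not overlap, and the (−dox) mean of 11.8 ± 1.94 CPM (SD, n = 4) was 39.0% of the (+dox) mean of 30.3 ± 1.59 CPM (SD, n = 4; two-sided exact permutation, p = 0.0286, which is the lowest possible for 4 and 4 libraries). The log2 fold change was 1.36 (adjusted p = 0.0024, SE 0.154). In the SCR line *NAA40* was at 27.4 ± 1.45 CPM with dox and 29.4 ± 3.63 CPM without it (SD, n = 4 each; exact permutation test, p = 0.457), so the libraries labelled NAA40-KD (+dox) lay at the SCR level. These labels are those of the sample titles. The count columns are headed KD-Dox for the samples labelled (+dox) and KD-wDox for those labelled (−dox). What the w stands for is not stated. The libraries are called by their labels from here on, and every direction rests on those labels.

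**Figure D1:**
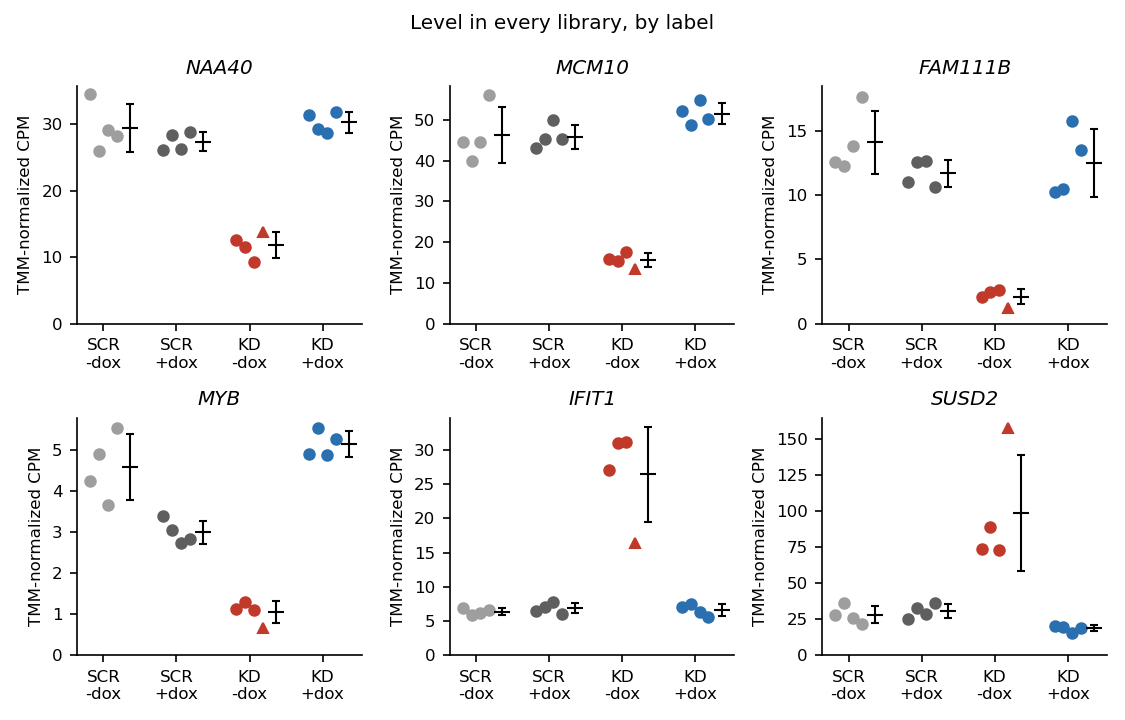
TMM-normalized CPM of 6 genes in each of the 16 libraries, grouped by label, with the mean and SD of the 4 libraries of a group to the right of its points. The triangle is NAA40-KD (−dox) replicate 4. In every panel the libraries labelled NAA40-KD (−dox) lie apart from those labelled NAA40-KD (+dox), with *NAA40* at 9.27 to 13.8 CPM against 28.7 to 31.9 CPM.

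One of the 8 libraries, NAA40-KD (−dox) replicate 4, stood apart from the other 3 of its group. Spearman correlations of log2 CPM across genes were 0.995 to 0.997 among the libraries labelled (+dox) and 0.994 to 0.996 among (−dox) replicates 1 to 3, but only 0.903 to 0.909 between replicate 4 and those 3. Its difference from them followed the GC content of the gene. The median log2 difference was −1.13 in the 3456 genes with the least GC (27.9 to 42.1%) and 1.06 in the 3455 with the most (56.8 to 74.4%). Without replicate 4 the biological coefficient of variation fell from 23.1% to 5.87%, against 13.04% in the SCR line. Genes called higher had a median GC content of 43.1% and genes called lower 56.4% with all 8 libraries, and 49.9% and 49.0% without replicate 4, so values without it stand beside those with it. The 7 remaining libraries are 4 against 3. *NAA40* itself was at 36.8% of the (+dox) mean without replicate 4 (log2 fold change 1.44, adjusted p = 3.7e-11).

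**Figure D2:**
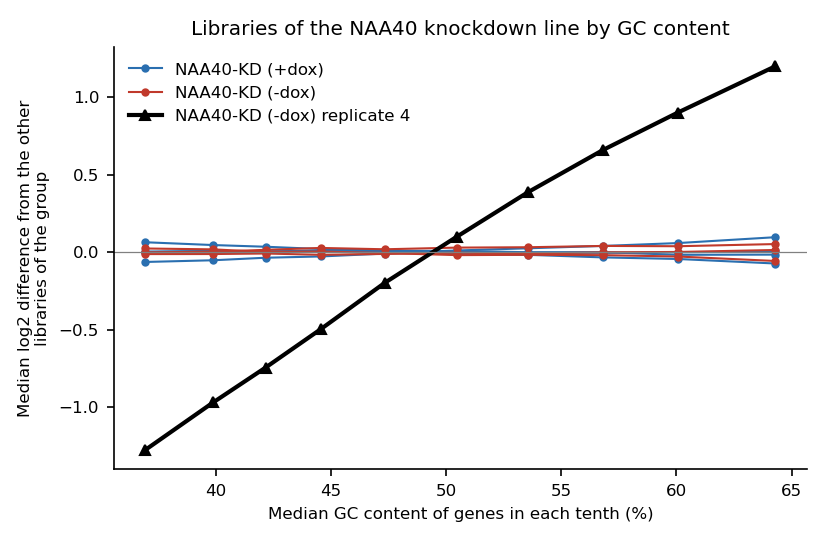
Median log2 difference of each of the 8 libraries from the others of its group (y axis) over 10 bins of genes ordered by GC content (x axis, %), with NAA40-KD (−dox) replicate 4 left out of the group it is set against. The medians of the other 7 libraries stay between −0.07 and 0.10, while those of replicate 4 run from −1.28 to 1.20.

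Between the dox labels of the NAA40 knockdown line, 552 of the 13844 genes tested (3.99%) were differentially expressed, 220 higher (1.59%) and 332 lower (2.4%) in the libraries labelled (+dox). Without replicate 4 the numbers were 504 of 13700 (3.68%), with 247 higher (1.8%) and 257 lower (1.88%), and 348 genes were called in the same direction in both fits, 63.0% of the former and 69.0% of the latter. The drop in spread was much more visible without the fold threshold, where 1414 genes (10.2%) passed an adjusted p of 0.05 with all 8 libraries and 7183 (52.4%) without replicate 4. Leaving out NAA40-KD (+dox) replicate 1, 2, 3 or 4 in place of it gave 285, 292, 246 and 235 genes. An offset for GC content on all 8 libraries gave 559 genes (4.04%), 247 higher (1.79%) and 312 lower (2.26%), of which 403 were among the 552, and 6112 genes (44.2%) without the fold threshold. The 4 and 4 libraries did not overlap for 29.7% of the genes tested and for 538 of the 552 genes called. Of the genes called, 479 were protein coding, and 335 overlap another annotated gene, for which the counts are uncertain since whether reads were counted by strand is not stated. Neither number was set beside the share over all genes tested.

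**Figure D3:**
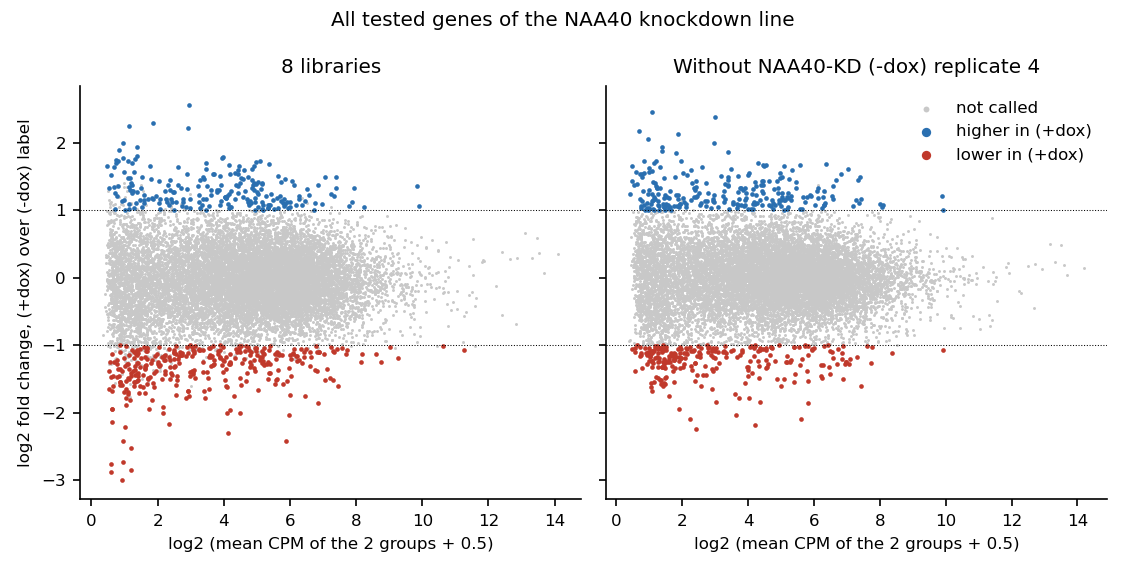
log2 fold change between the (+dox) and (−dox) labels (y axis) against the mean level (x axis, log2 of CPM + 0.5) for every gene tested, with all 8 libraries (left) and without NAA40-KD (−dox) replicate 4 (right). Coloured points are the 220 higher and 332 lower genes on the left and the 247 higher and 257 lower genes on the right, and dotted lines mark the fold threshold.

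The same label difference gave 0 differentially expressed genes among 13882 tested in the SCR line, by edgeR, DESeq2 and limma-voom alike. Without the fold threshold too, 0 genes passed an adjusted p of 0.05. Before correction for the number of tests, 271 of the 13882 genes had a p under 0.05, 8 of them with an absolute log2 fold change above 1. The gene with the lowest p was *LINC01001* (log2 fold change −1.71, adjusted p = 0.9999, SE 0.357), followed by *ARTN*, a neurotrophic ligand, at 0.59. Whether the label difference itself differed between the lines was tested as an interaction over all 16 libraries, which called 646 of 14392 genes (4.49%), 269 with a more positive (1.87%) and 377 with a more negative difference (2.62%) in the knockdown line. Without replicate 4 it called 719 of 14302 (5.03%), 329 (2.3%) and 390 (2.73%) by direction. An adjusted p of 0.05 alone was passed by 1327 genes (9.22%), 620 (4.31%) positive and 707 (4.91%) negative. For *NAA40* the interaction was 1.46 on the log2 scale (adjusted p = 2.2e-04).

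The SCR libraries, which were not used to call these genes, lay mostly on the side of the (+dox) label. Of the 220 genes called higher, the mean log2 CPM of the 8 SCR libraries was nearer to NAA40-KD (+dox) for 202 and nearer to NAA40-KD (−dox) for 18. Of the 332 called lower it was nearer to (+dox) for 235 and to (−dox) for 97. Without replicate 4 the numbers were 225 of 246 genes with a value in all 16 libraries and 167 of 257.

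The genes with the largest rises by the naming rule, which took only called genes with groups that do not overlap, follow first. *FAM111B*, a protease whose transcript peaks in S phase, was at 10.3, 10.4, 15.7 and 13.5 CPM in the libraries labelled (+dox) and at 2.09, 2.43, 2.63 and 1.24 CPM in those labelled (−dox). Replicate 4 was the lowest of the (−dox) libraries, and the log2 fold change was 2.56 (adjusted p = 0.0015, SE 0.252), or 2.39 without replicate 4. *MYB*, the proto-oncogene transcription factor of progenitor cells, was at 4.91, 5.55, 4.87 and 5.27 CPM against 1.12, 1.29, 1.09 and 0.659 CPM, a log2 fold change of 2.29 (adjusted p = 0.0015, SE 0.212), from as few as 8 counts in a library. *NRP1*, a co-receptor for semaphorins and VEGF, was at 10.5 to 12.8 CPM against 1.24 to 3.06 CPM (log2 fold change 2.22, adjusted p = 0.0024, and 2.003 without replicate 4). *XRCC2*, of homologous recombination, had a log2 fold change of 1.78, *SAMD5* of 1.78, *WDR76* of 1.71, the pseudogene *ZNF37BP* of 1.71, *MMS22L*, which acts at stalled forks, of 1.69 and *C4orf46* of 1.67. Without replicate 4 these 6 were at 1.54, 1.52, 1.496, 1.61, 1.42 and 1.41, each with a smaller SE. The adjusted p of *MMS22L* rose above 0.05 when (+dox) replicate 2, 3 or 4 was left out, to at most 0.052.

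The genes with the largest falls were taken by the same rule. *SUSD2*, a membrane protein with a sushi domain, was at 20.3, 19.2, 15.4 and 18.9 CPM in the libraries labelled (+dox) and at 73.9, 88.9, 73.3 and 158 CPM in those labelled (−dox). The log2 fold change was −2.42 (adjusted p = 0.0024, SE 0.272), and −2.10 without replicate 4, the library with the highest value. *CLIC3*, a chloride channel family member, was at 5.45 to 5.91 CPM against 17.1, 18.4, 23.4 and 52.8 CPM (log2 fold change −2.30, adjusted p = 0.00777), and its change was −1.79 without replicate 4. *NR4A3*, an orphan nuclear receptor, was at 0.962 to 2.06 CPM against 6.42 to 8.52 CPM (log2 fold change −2.17, adjusted p = 0.0024, and −2.24 without replicate 4). *KRTAP2-3*, a keratin-associated protein gene, was at −2.01, *ARHGDIB*, a GDP-dissociation inhibitor of small GTPases, at −2.00 and *PKD1L2* at −1.97 on the log2 scale, and at −1.84, −2.09 and −1.78 without replicate 4. *C1QTNF12*, a secreted C1q-related factor, had a log2 fold change of −1.92 (adjusted p = 0.0339) that was −1.34 without replicate 4, and its adjusted p rose to at most 0.114 when any of the (+dox) libraries or (−dox) replicate 1 was left out. *LVRN*, an aminopeptidase, was at −1.78 and at −2.04 without replicate 4, with an adjusted p of at most 0.0582 when (+dox) replicate 2, 3 or 4 was left out.

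Among the genes with the highest levels, *DCBLD2*, a neuropilin-like receptor, was at 1260, 1311, 1368 and 1335 CPM against 564, 553, 597 and 349 CPM (log2 fold change 1.35, adjusted p = 0.0033, and 1.20 without replicate 4). *NCL*, nucleolin of the nucleolus, was at 1257 to 1296 CPM against 536 to 665 CPM (log2 fold change 1.06, adjusted p = 0.0015, and 1.00 without replicate 4). Among the abundant genes called lower, *ACTB* and *FTL* did not reach the fold threshold without replicate 4. *ACTB*, cytoplasmic β-actin, was at 1490 to 1662 CPM against 2547, 2504, 2955 and 5133 CPM, with a log2 fold change of −1.07 (adjusted p = 0.0218) that was −0.77 (adjusted p = 2.0e-10) without replicate 4. *FTL*, the ferritin light chain, moved in the same way, from −1.01 to −0.75. Leaving out any of the 4 (+dox) libraries took the adjusted p of both above 0.05, to at most 0.0781 for *ACTB* and 0.0711 for *FTL*.

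Genes that assemble the replicative helicase were higher in the libraries labelled (+dox). Of the 28 genes for the MCM helicase and origin licensing, all of them tested, 17 passed an adjusted p of 0.05 as higher and 0 as lower. Of all genes tested, 4.71% and 5.5% did. The list held 12 differentially expressed genes, all higher (1.59% of all genes). Its median log2 fold change was 0.89, beside −0.04 over all genes tested. *MCM10*, which helps to activate the helicase at origins, was at 52.3, 48.8, 54.9 and 50.3 CPM in the (+dox) libraries and at 15.8, 15.4, 17.6 and 13.3 CPM in the (−dox) libraries. Its log2 fold change was 1.73 (adjusted p = 0.0012, SE 0.132), and 1.66 without replicate 4. *MCM3*, a subunit of the MCM ring, was at 184 to 210 CPM against 65.1, 63.1, 64.6 and 86.3 CPM (log2 fold change 1.49, adjusted p = 0.0015, and 1.61 without replicate 4). *GINS2*, of the GINS complex, was at 27.7 to 35.9 CPM against 9.97 to 10.7 CPM (log2 fold change 1.65, adjusted p = 0.00134, and 1.67 without replicate 4). Without replicate 4, 24 of the 28 passed as higher and 3 as lower, at a median of 0.91. In that fit 25.8% of all genes passed as higher and 26.6% as lower, the shares against which each list's counts without replicate 4 stand. One of those 3 was *MCM6*, a subunit of the same ring, at −0.29 (adjusted p = 0.282) with 8 libraries and −0.41 (adjusted p = 1.7e-05) with 7, named here after its value was seen.

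Replication fork and polymerase genes were shifted in the same direction. Of 32 genes, all tested, 18 passed as higher (4.71% of all genes) and 0 as lower (5.5%). The list held 9 differentially expressed genes, all higher (1.59% of all genes), and its median log2 fold change was 0.76. Without replicate 4, 29 passed as higher and 0 as lower, at a median of 0.75. *POLA1*, the catalytic subunit of DNA polymerase α, was at 31.8, 32.5, 32.3 and 30.8 CPM against 15.5, 13.01, 13.4 and 6.26 CPM. The lowest value was that of replicate 4, and the log2 fold change of 1.40 (adjusted p = 0.0103, SE 0.243) was 1.19 (SE 0.0894) without it. *CLSPN*, claspin of the replication checkpoint, was at 42.5 to 49.2 CPM against 10.8 to 17.1 CPM (log2 fold change 1.66, adjusted p = 0.0015, and 1.55 without replicate 4). *POLE2*, a subunit of DNA polymerase ε, was at 20.2 to 21.4 CPM against 8.44, 9.21, 8.68 and 3.05 CPM (log2 fold change 1.51, and 1.26 without replicate 4), with an adjusted p of at most 0.0553 when any 1 of the (+dox) libraries was left out.

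Homologous recombination and Fanconi anaemia repair genes, all 34 of which were tested, gave 16 higher (4.71% of all genes) and 0 lower (5.5%) at an adjusted p of 0.05. There were 8 differentially expressed genes, all higher (1.59% of all genes), and the median log2 fold change was 0.62. Without replicate 4, 25 were higher and 1 lower, at a median of 0.67. *RAD54L*, which promotes strand exchange, was at 15.8, 14.6, 13.96 and 14.5 CPM against 5.45, 4.87, 5.33 and 5.11 CPM, with a log2 fold change of 1.499 (adjusted p = 0.00134, SE 0.128) that replicate 4 hardly moved (1.49 without it). *EXO1*, the exonuclease of end resection, was at 29.5 to 34.0 CPM against 6.75 to 12.99 CPM (log2 fold change 1.54, adjusted p = 0.00366, and 1.38 without replicate 4). *BRCA2*, a mediator of recombination, was at 28.6 to 31.1 CPM against 12.6, 13.3, 10.7 and 3.79 CPM (log2 fold change 1.55, adjusted p = 0.0193, and 1.28 without replicate 4). Its adjusted p was at most 0.0677 when any of the (+dox) libraries or (−dox) replicate 3 was left out.

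Of the E2F factors, retinoblastoma family and G1/S cyclins, 24 of 25 were tested, and 8 passed as higher (4.71% of all genes) and 0 as lower (5.5%). The 4 differentially expressed members were all higher (1.59% of all genes), and the list median was 0.45. Without replicate 4, 17 passed as higher and 3 as lower, against 25.8% and 26.6% of all genes, at a median of 0.36. *E2F2*, an activating member, was at 31.2, 33.7, 35.3 and 32.2 CPM against 12.8, 8.75, 10.0 and 15.97 CPM (log2 fold change 1.48, adjusted p = 0.00447, SE 0.196, and 1.65 without replicate 4). *E2F1* was at 20.9 to 27.4 CPM against 10.0, 7.30, 11.96 and 18.0 CPM (log2 fold change 1.04, adjusted p = 0.0357, and 1.32 without replicate 4). *CCNE2*, cyclin E2, was at 8.64 to 11.02 CPM against 5.97, 4.72, 3.06 and 2.06 CPM (log2 fold change 1.32, adjusted p = 0.0237, and 1.11 without replicate 4). Leaving out a library other than replicate 4 raised the adjusted p to at most 0.113 for *E2F1*, where each of the 7 did so, and to 0.0798 for *CCNE2*, where the (+dox) libraries and (−dox) replicate 3 did.

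Most mitotic genes did not pass with all 8 libraries, though 42 of 45 had positive values. Of the 45, all tested, 7 passed as higher and 1 as lower, where 4.71% and 5.5% of all genes did. Without replicate 4, 37 passed as higher and 2 as lower, where 25.8% and 26.6% of all genes did. The median fell from 0.54 to 0.40 and the number of differentially expressed genes from 2 to 0. Those 2 were *ASPM*, of the spindle pole, at a log2 fold change of 1.13 (adjusted p = 0.0243) and *KIF11*, the bipolar spindle kinesin, at 1.03 (adjusted p = 0.0497), which were at 0.92 and 0.80 without replicate 4. *KIF11* was at 84.2, 84.4, 77.8 and 80.6 CPM against 54.2, 37.4, 49.2 and 18.7 CPM. With another library left out the adjusted p reached 0.0781 for *ASPM* (any (+dox) library or (−dox) replicate 2) and 0.126 for *KIF11* (each of the 7). *CDC25B*, a phosphatase that activates CDK1, was the 1 lower gene, at −0.82 (adjusted p = 0.0181) and −0.63 without replicate 4, with an adjusted p of at most 0.0751 when any 1 of the (+dox) libraries was left out.

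The promoters of these genes were read for short motifs, from 250 bases before to 50 bases after the RefSeq start (GRCh38.p14), for the 10456 tested gene symbols with an entry. An E2F motif was counted where the run TTCGCGC, the run TTGGCGC or the run TTCCCGC occurred on either strand. It was present in 58 of 155 genes called higher (37.4%), in 29 of 238 called lower (12.2%), in 17.9% of all tested genes and in 11.2% of the 27305 promoters in the reference. Without replicate 4 the shares were 37.4% of 163 and 11.5% of 191. In the replication lists the share was 58.3% of 24 MCM and licensing genes, 65.4% of 26 fork genes and 56.7% of 30 repair genes, whereas the CHR element of mitotic genes (TTTGAA or TTCGAA) was in 71.8% of 39 mitotic genes and 10.9% of tested genes. The CHR element was in 13.5% of the genes called higher. Stretches of 60 bases from 3 of the called promoters are printed to show the motif in place, 5′ to 3′ on the strand of the gene, with the E2F motif or its reverse complement in capitals. They are from *RAD54L* (+ strand, chr1:46247612-46247671), *E2F2* (− strand, chr1:23531242-23531301) and *POLA1* (+ strand, chrX:24693771-24693830).
RAD54L: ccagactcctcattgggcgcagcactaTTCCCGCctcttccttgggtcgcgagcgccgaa
E2F2: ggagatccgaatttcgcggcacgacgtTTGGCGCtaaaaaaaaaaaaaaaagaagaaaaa
POLA1: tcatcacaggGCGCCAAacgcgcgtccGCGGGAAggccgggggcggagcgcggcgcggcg
A match is a run of letters and not a measured binding site. *MCM10*, *MYB*, *CLSPN* and *DUT* had no match upstream of the start, and *FAM111B* is not in the promoter table.

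**Figure D4:**
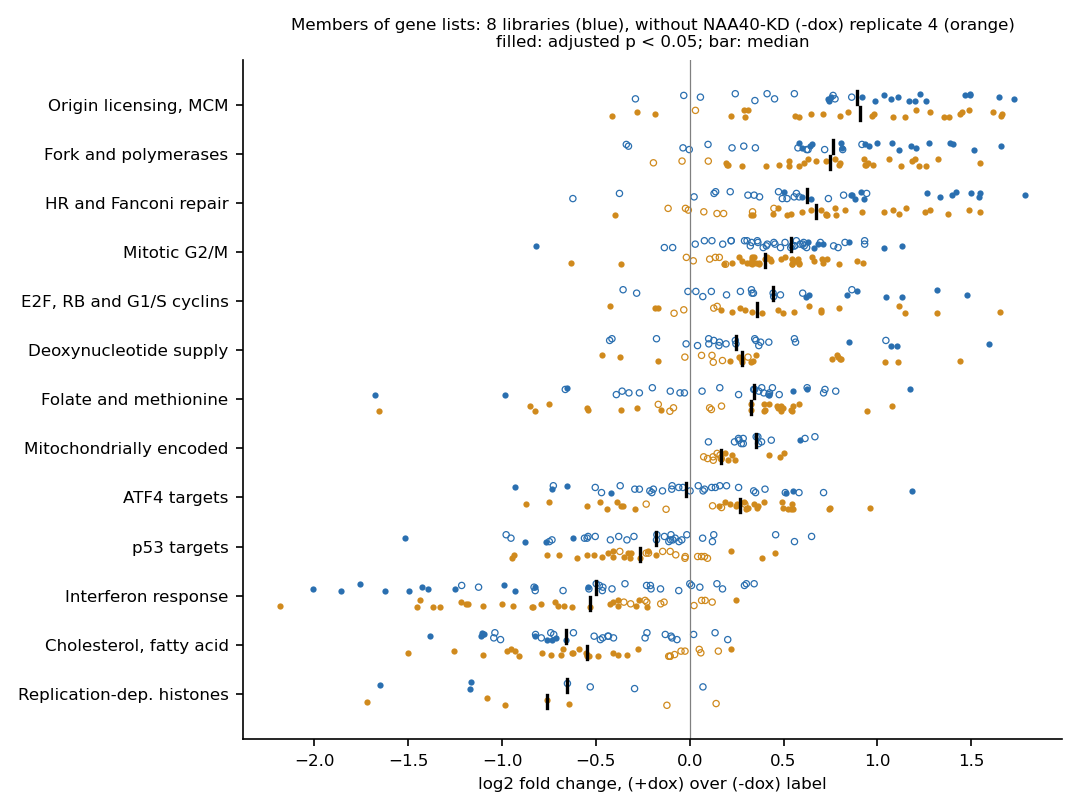
log2 fold change between the (+dox) and (−dox) labels (x axis) for each tested member of 13 gene lists (rows), with all 8 libraries in blue and without NAA40-KD (−dox) replicate 4 in orange. Filled points passed an adjusted p of 0.05 and black bars are list medians, which run from 0.89 for origin licensing and MCM genes to −0.66 for cholesterol and fatty acid synthesis genes with 8 libraries.

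Genes that supply deoxynucleotides were higher in part. Of 25 tested, 4 passed as higher (4.71% of all genes) and 0 as lower (5.5%), at a median of 0.25. *TYMS*, thymidylate synthase and the target of fluoropyrimidines, was at 47.8, 44.8, 55.5 and 47.3 CPM against 23.8, 21.6, 25.6 and 21.8 CPM (log2 fold change 1.07, adjusted p = 0.00287, SE 0.131, and 1.04 without replicate 4). *DUT*, the dUTPase, was at 32.8 to 40.7 CPM against 15.0 to 18.1 CPM (log2 fold change 1.10, adjusted p = 0.00269, and 1.11 without replicate 4). Without replicate 4, 16 passed as higher and 3 as lower, against 25.8% and 26.6% of all genes.

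In the folate and methionine cycles and transsulfuration, the study's metabolic pathway, 32 of 40 listed genes were tested. Of these, 4 were higher (4.71% of all genes) and 3 lower (5.5%), at a median of 0.34. *MAT1A*, which makes S-adenosylmethionine, was at 3.55, 4.14, 2.95 and 2.78 CPM against 11.9, 10.7, 9.05 and 11.2 CPM. The groups were well apart, with a log2 fold change of −1.68 (adjusted p = 0.00206, SE 0.179) and −1.66 without replicate 4, at 39 counts or more in each library. *CTH*, cystathionine γ-lyase of transsulfuration, was at 20.5, 19.7, 18.2 and 18.9 CPM against 31.4, 32.7, 32.9 and 24.2 CPM. Its log2 fold change was −0.65 (adjusted p = 0.0203), with an adjusted p of at most 0.0895 when any library other than replicate 4 was left out, and −0.75 (adjusted p = 4.3e-08) without replicate 4. *MMAA*, of cobalamin handling, was at 6.45, 6.29, 5.91 and 5.62 CPM against 11.6, 10.8, 10.4 and 5.60 CPM. Replicate 4 lay just below the lowest (+dox) library. The log2 fold change of −0.66 (adjusted p = 0.0907) did not pass with replicate 4 but was −0.85 (adjusted p = 4.4e-06) without it. *MTR*, methionine synthase, went the other way, at 104, 107, 108 and 109 CPM against 52.4, 54.1, 45.5 and 37.9 CPM (log2 fold change 1.17, adjusted p = 0.00274, SE 0.141, and 1.08 without replicate 4). Without replicate 4, 17 of the 32 were higher and 9 lower, against 25.8% and 26.6% of all genes.

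Elsewhere among the named genes, *FOXO4*, a forkhead factor, was at 12.7, 13.2, 11.8 and 10.0 CPM against 24.1, 22.2, 25.0 and 37.3 CPM (log2 fold change −1.19, adjusted p = 0.00862, SE 0.196, and −1.002 without replicate 4). *MYC*, the growth-promoting proto-oncogene, was at 338, 349, 384 and 399 CPM against 217, 212, 238 and 372 CPM. The groups overlapped only through replicate 4, and the log2 fold change was 0.50 (adjusted p = 0.137) with it and 0.72 (adjusted p = 8.6e-10) without it. Among subunits of the N-terminal acetyltransferases, 12 of 13 were tested and 2 passed, both higher (4.71% of all genes), *NAA40* and *NAA16*, an auxiliary subunit of the NatA complex, at 1.10 (adjusted p = 0.0167). Without replicate 4, 4 were higher and 4 lower, against 25.8% and 26.6% of all genes. *NAA16* was at 0.91 without replicate 4 and had an adjusted p of at most 0.0641 when any 1 of the (+dox) libraries was left out.

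Of the 46 interferon-stimulated genes in the list 37 were tested, of which 0 passed as higher and 12 as lower (5.5% of all genes), 25 did not pass, and 8 were differentially expressed (2.4% of all genes), at a median log2 fold change of −0.50. *IFIT1*, which binds foreign RNA lacking cap methylation, was at 7, 7.47, 6.28 and 5.62 CPM against 27.1, 31.0, 31.2 and 16.4 CPM (log2 fold change −2.00, adjusted p = 0.0024, SE 0.223, and −2.18 without replicate 4). *ISG15*, a ubiquitin-like modifier, was at 46.3, 50.7, 52.4 and 49.0 CPM against 116, 119, 137 and 343 CPM (log2 fold change −1.86, adjusted p = 0.0141). Here replicate 4 was the highest library, the change was −1.33 without it, and the adjusted p was at most 0.0609 when any 1 of the (+dox) libraries was left out. *OASL*, of the oligoadenylate synthetase family, was at 7.46 to 9.62 CPM against 21.8 to 33.8 CPM (log2 fold change −1.62, adjusted p = 0.00246, and −1.45 without replicate 4). *IFI6* was at 2.07 to 4.27 CPM against 7.84 to 17.9 CPM (log2 fold change −1.76, adjusted p = 0.0122, or 0.0567 with (+dox) replicate 4 left out). Without NAA40-KD (−dox) replicate 4, 1 was higher and 26 lower, 10 of them differentially expressed, at a median of −0.53.

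The element read by IRF factors was taken as TTTC, any 2 bases and TTTC again, on either strand, and occurred in 62.1% of the 29 interferon-list promoters in the reference, in 2.64% of tested genes, in 5.04% of the 238 genes called lower and in 2.58% of the 155 called higher. It is shown in capitals in 60 bases upstream of *IFIT1* (+ strand, chr10:89392495-89392554) and *IFI6* (− strand, chr1:27672251-27672310), both called lower.
IFIT1: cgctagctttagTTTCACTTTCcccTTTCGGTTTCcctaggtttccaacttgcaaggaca
IFI6: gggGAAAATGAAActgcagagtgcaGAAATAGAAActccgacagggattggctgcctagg

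Of 33 cholesterol and fatty acid synthesis genes, all tested, 0 passed as higher and 10 as lower, where 5.5% of all genes did, and 23 did not pass. Of the 10, 5 were differentially expressed (2.4% of all genes), and the list median was −0.66. *INSIG1*, which retains the SREBP activator in the endoplasmic reticulum, was at 66.6, 68.6, 60.03 and 51.9 CPM against 169, 185, 170 and 121 CPM (log2 fold change −1.38, adjusted p = 0.00289, SE 0.167, and −1.503 without replicate 4). Without replicate 4, 1 of the 33 was higher and 23 lower, 3 of them differentially expressed.

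Of 30 replication-dependent histone genes, whose main transcripts end in a stem-loop and lack a poly(A) tail, 23 were listed and 7 tested. None was higher and 3 were lower, where 4.71% and 5.5% of all genes were, and all 3 were differentially expressed (2.4% of all genes). These were the linker histone gene *H1-2* (log2 fold change −1.17), *H2AC6* (−1.65) and *H2BC5* (−1.16), with adjusted p-values of 0.00796, 0.0015 and 0.00455. *H2AC6* was at 5.64, 5.99, 5.32 and 4.70 CPM against 15.3, 20.3, 17.7 and 14.4 CPM. Without replicate 4 the 3 were at −0.98, −1.72 and −1.08, and 5 of the 7 were lower, where 26.6% of all genes were.

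**Figure D5:**
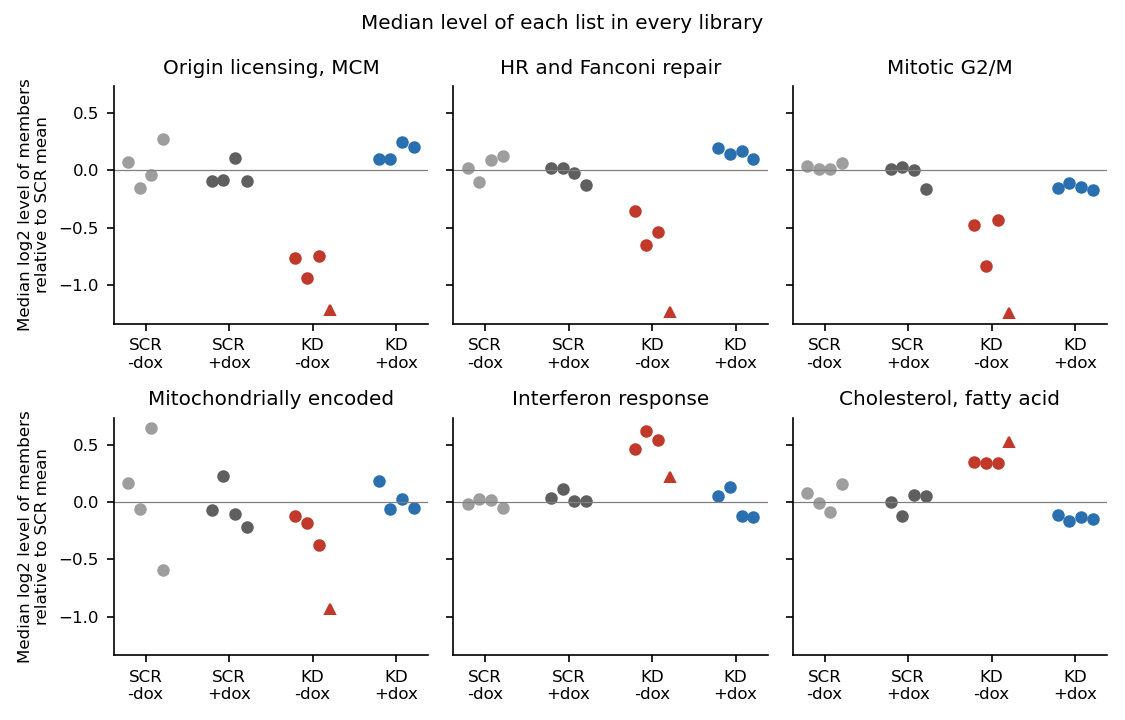
Median log2 level of the tested members of 6 gene lists in each of the 16 libraries (y axis, relative to the mean of the SCR libraries), grouped by label, with NAA40-KD (−dox) replicate 4 as a triangle. For the licensing, repair and mitotic lists all 4 libraries labelled NAA40-KD (−dox) lie below the other 12. For the interferon and cholesterol lists all 4 lie above the other 12.

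Targets of p53 had a median of −0.18, beside −0.04 over all genes, and 27 of 33 tested genes had negative values. Of the 33, 0 passed as higher and 4 as lower, where 4.71% and 5.5% of all genes did. Without replicate 4, 3 passed as higher and 18 as lower, against 25.8% and 26.6% of all genes, at a median of −0.26. *CDKN1A*, the p21 cell-cycle inhibitor, was at 309 to 341 CPM against 495, 459, 504 and 713 CPM (log2 fold change −0.76, adjusted p = 0.0179, and −0.60 without replicate 4), and *PLK2*, a stress-responsive kinase, was at −0.88 (adjusted p = 0.00467, and −0.95 without replicate 4). *BBC3*, the pro-apoptotic PUMA, was the 1 differentially expressed member, at 20.0 to 30.1 CPM against 47.4, 47.0, 46.7 and 141 CPM, and its log2 fold change of −1.52 (adjusted p = 0.042) became −0.94 without replicate 4. With another library left out the adjusted p was at most 0.136 for *BBC3* (each of the 7) and 0.076 for *CDKN1A* (any 1 of the (+dox) libraries). Targets of ATF4, the factor of the integrated stress response, were divided, with 3 of 36 higher (4.71% of all genes) and 4 lower (5.5%). *SLC7A11*, the cystine transporter, was at 1.18 (adjusted p = 0.0293, and 0.96 without replicate 4) and *ATF3*, a stress-induced repressor, at −0.93 (adjusted p = 0.0063, and −0.87 without replicate 4). The adjusted p of *SLC7A11* was at most 0.102 when any of the (+dox) libraries or (−dox) replicate 2 was left out. The median of this list turned from −0.02 with 8 libraries to 0.27 without replicate 4, where 22 were higher and 9 lower, against 25.8% and 26.6% of all genes. Between the labels of the SCR line the median of the same list was 0.22, and its median interaction over 16 libraries was −0.23.

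The mitochondrially encoded genes all had positive values, 15 of 15, with 1 that passed and a median of 0.35. For the interaction with the SCR line 0 of the 15 passed an adjusted p of 0.05, with or without replicate 4. Within the SCR (−dox) group alone these genes took 6.42 to 14.3% of the counts of a library. Without replicate 4, in which they took 5.03% of the counts against 7.63 to 9.34% in the other (−dox) libraries and 9.77 to 11.6% in the (+dox) ones, the median was 0.17 and 8 of the 15 passed as higher, against 25.8% of all genes. At an adjusted p of 0.05, passed as higher by 4.71% and as lower by 5.5% of all genes, 2 of 80 mitochondrial ribosomal proteins were higher and 2 lower, 0 and 1 of 74 nuclear-encoded respiratory chain subunits, 1 and 0 of 78 cytosolic ribosomal proteins and 0 and 0 of 20 aminoacyl-tRNA synthetases, with medians between −0.15 and 0.10. Without replicate 4 the numbers were 20 and 8, 14 and 10, 5 and 6, and 9 and 6, where 25.8% of all genes were higher and 26.6% lower.

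The labelled cell type was checked against its markers. The summed level of the 12 markers was 4716 to 5011 CPM in the (+dox) and 5921 to 12820 CPM in the (−dox) libraries, or 5921 to 6920 CPM without replicate 4. The intestinal factor *CDX2* was at 20.9 ± 1.35 and 21.3 ± 6.91 CPM (SD, n = 4 each), whereas *VIL1* and *LGALS4*, also intestinal, were near 0, at 1 to 3 and 0 to 7 counts in the 8 libraries. Of the 10 markers tested, 3 passed as lower and 0 as higher with 8 libraries, where 5.5% and 4.71% of all genes did. Without replicate 4, 6 passed as lower and 1 as higher, where 26.6% and 25.8% of all genes did. With 8 libraries 9 of the 10 had negative values and 1 a positive one. *EPCAM* was at 389 ± 6.16 CPM in the (+dox) and 319 ± 42.3 CPM in the (−dox) libraries (SD, n = 4 each). *KRT8*, a keratin of simple epithelia, had a log2 fold change of −0.95 (adjusted p = 0.0466) and *CLDN4*, a tight-junction claudin, of −1.02 (adjusted p = 0.0464), which were −0.61 and −0.64 without replicate 4. Their adjusted p-values reached 0.137 (each other library but (−dox) replicate 2) and 0.142 (each of the 7) with another library left out. Fibroblast markers summed to 70.8 to 81.5 CPM against 75.1 to 205 CPM, or 75.1 to 87.8 CPM without replicate 4. Most of this sum was *COL1A1*, at 72.4 ± 4.64 and 105 ± 60.5 CPM (SD, n = 4 each). *ACTA2* was at 3.39 ± 0.407 and 7.38 ± 1.37 CPM (SD, n = 4 each). Of the 2 fibroblast markers tested, 1 was differentially expressed, as lower, in both fits (2.4% and 1.88% of all genes). Leukocyte and endothelial markers summed to 1.28 to 2.59 CPM against 2.55 to 5.93 CPM, or 2.55 to 4.26 CPM without replicate 4. In each group 3 of the 10 fibroblast and 4 of the 12 leukocyte and endothelial markers were at 0 in every library. Those genes were not all the same in both groups. The part of these levels in the results was not tested, and in bulk RNA fewer cells with a transcript and less of it per cell cannot be told apart.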

How the data were processed

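RNA-seq was run on 4 replicates of each of 4 groups, from a stranded library kit by the study's methods, and whether the counting used strand is not given in the sources used here. The deposited gene counts are raw read counts, made by the authors with STAR and featureCounts (limma is also named in the submitters' processing notes). Those notes list both hg38 and GRCm38 and the study's methods name a mouse build, but all 33937 identifiers are human Ensembl genes, of which 33811 are in GENCODE 29. The 8 libraries held 11065606 to 13855486 counts each. Groups were taken from the sample labels, and the study calls the RNA samples of a group independent without saying that they came from separate cultures, so p-values measure the spread between these libraries, which may be in part technical.

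Genes with CPM above 1 in at least 4 of 8 libraries were fitted with edgeR 4.0.16 (R 4.3.3; TMM, robust quasi-likelihood, group as the only term), with standard errors from the F statistic. The SCR labels were fitted in the same way and the interaction over 16 libraries. DESeq2 1.42.0, limma 3.58.1 (voom), other scalings and filters, a replicate block, an offset for GC content (lowess span 0.3) and leaving out each library were alternatives. The GC offset and the fits that combine it or the removal of replicate 4 with another choice were chosen after seeing the data. The test was checked on simulated counts. Genes were named by a rule, namely *NAA40* and genes the study measured, the largest rises and falls among called genes with groups that do not overlap and a mean of at least 5 CPM, the leading members of each list, the most abundant called genes and the extremes of the SCR and interaction tests. The text gives a part of these, picked after their values were seen, and some genes are not reported here. The members and the lists were chosen with earlier results of these data known. Library pairs that share a replicate number had deviations correlated at 0.04 to 0.24, and pairs with different numbers at −0.26 to 0.15. The main fit did not pair libraries by number, and whether the numbers pair them was not tested. 0 columns were left unmatched to a sample.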

Additional observations from a re-analysis of the deposited data

Results flagged for a closer look

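Of 122 groups of 4 libraries tested among the genes named, 10 held a library far from its others by Dixon's criterion, where chance gives about 1 in 20 groups. In 9 of the 10 it was NAA40-KD (−dox) replicate 4. It was the high library for *CLDN4* (1186 CPM), *CDC25B* (553 CPM), *MYC* (372 CPM), *ISG15* (343 CPM), *BBC3* (141 CPM), *MCM3* (86.3 CPM) and *OASL* (33.8 CPM) and the low one for *POLE2* (3.05 CPM) and *SAMD5* (2.80 CPM). The remaining library was NAA40-KD (+dox) replicate 3 for *POLE2*, at 20.2 CPM.

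The dox label difference differed between the knockdown and SCR lines for 646 genes by the interaction test over 16 libraries. Of the 61 named genes with values recomputed below, those with an interaction adjusted p under 0.05 (edgeR's quasi-likelihood test, Benjamini-Hochberg) are given here. Values are on the log2 scale, knockdown minus SCR. The interaction was 2.90 for *MYB*, 2.83 for *FAM111B*, 1.94 for *XRCC2*, 1.93 for *MMS22L*, 1.88 for *WDR76*, 1.87 for *ZNF37BP* and 1.87 for *NRP1*. Next came 1.83 for *GINS2*, 1.79 for *BRCA2*, 1.75 for *CLSPN*, 1.75 for *MCM10*, 1.71 for *C4orf46* and 1.70 for *POLE2*. Values were 1.70 for *SAMD5*, 1.64 for *EXO1*, 1.63 for *MCM3*, 1.58 for *POLA1*, 1.54 for *CCNE2*, 1.47 for *E2F2* and 1.46 for *NAA40*. Then followed 1.42 for *RAD54L*, 1.41 for *DCBLD2*, 1.35 for *MTR*, 1.35 for *ASPM*, 1.19 for *TYMS*, 1.18 for *KIF11* and 1.12 for *NAA16*. At the lower end were 1.11 for *NCL* and 0.92 for *DUT*. Among negative values it was −2.56 for *SUSD2*, −2.55 for *CLIC3*, −2.38 for *NR4A3*, −2.27 for *KRTAP2-3*, −2.21 for *PKD1L2*, −2.18 for *OASL* and −2.15 for *ISG15*. Next came −2.12 for *MAT1A*, −2.10 for *IFIT1*, −1.97 for *ARHGDIB*, −1.91 for *IFI6*, −1.84 for *LVRN*, −1.80 for *C1QTNF12* and −1.79 for *BBC3*. Values were −1.76 for *H2AC6*, −1.64 for *H2BC5*, −1.44 for *H1-2*, −1.30 for *FOXO4*, −1.17 for *CLDN4*, −1.16 for *KRT8* and −1.15 for *ATF3*. Then followed −1.14 for *FTL*, −1.14 for *MMAA*, −1.10 for *INSIG1*, −0.99 for *ACTB*, −0.88 for *PLK2* and −0.83 for *CTH*. At the lower end were −0.80 for *CDKN1A* and −0.75 for *CDC25B*.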

How the results depend on the processing

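Of 1157 recomputed gene values over 61 genes, 1034 kept direction and side of an adjusted p of 0.05, 112 no longer passed it, 11 newly did and 0 turned direction, leaving the fold threshold aside, and the cause was not tested. *NAA40* passed under each alternative run (log2 fold change 1.25 to 1.44). The 552 genes became 209 at an adjusted p of 0.01, 1414 with no fold threshold and 7183 with none and replicate 4 left out, and 235 to 504 with 1 library left out. DESeq2 gave 681, voom 518, no filter on low counts 680 and the fit over 16 libraries 754. In the SCR line the count was 1 without the filter on low counts. The interaction count of 646 became 326 at an adjusted p of 0.01, 1327 with no fold threshold and 477 to 733 with 1 knockdown library left out.

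With the replicate number as a block the counts were 452, 0 in the SCR line and 499 for the interaction, and *NAA40* was at 1.37 (adjusted p = 0.0195). Deviations of same-number libraries correlated at 0.04, 0.22, 0.11 and 0.24, and those of libraries with different numbers at −0.26 to 0.15. Whether the numbers pair libraries was not tested. Genes at a few CPM, such as *MYB* with 8 counts in its lowest library, are limited by depth.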
